A study of Mus musculus with 2 samples.

Results

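A group of 10 genes that carry dietary fat through the absorptive cell of the small intestine was examined in mouse villi, the finger-like folds of the mucosa. They were taken by their symbols, as the row with the highest mean for each: Apob, Mttp, Apoa1, Apoa4, Apoc3, Fabp1, Fabp2, Mogat2, Dgat1 and Dgat2, 10 of 20722 gene symbols in the table. Messenger RNA had been sequenced from 1 library per genotype. Both libraries came from C57BL/6 mice that carried Rosa26-CreERT2, a Cre recombinase switched on by tamoxifen, and Cdkn2a-/-, so that the control lacks this cell cycle inhibitor too. The second library had in addition Ring1a-/- and Ring1bf/f, a constitutive loss of 1 catalytic subunit of Polycomb repressive complex 1 (PRC1) and a floxed allele of its partner that Cre can delete. It is called dKO-labelled (double knockout) here. Villi were collected 6 days after 3 tamoxifen injections. The Rosa26 locus is active in most cell types, so any deletion need not be restricted to the epithelium. The labels do not give the number, age or sex of the mice behind a library.

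Fat that has been digested in the gut lumen enters the enterocyte as fatty acids and monoacylglycerol. Carrier proteins take these to the endoplasmic reticulum, where acyltransferases rebuild triglyceride. The triglyceride is loaded onto apolipoprotein B, further apolipoproteins coat the surface, and the particle leaves for the lymph as a chylomicron. PRC1 ubiquitinates histone H2A and represses developmental regulators, mostly at promoters rich in CpG dinucleotides.

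With 1 library per genotype no difference has a replicate check and none was tested. Depth was 775827 reads for control villi and 1058196 for dKO-labelled villi, recovered from the deposited normalised counts. Ring1 had 10 reads in each library and Rnf2 (Ring1b) 59 and 82, so neither targeted gene was lower beyond counting error, and such counts cannot tell whether a single exon was removed. Xist had 80 reads in control villi and 1 in dKO-labelled villi, and Ddx3y 0 and 131, so sex and genotype label cannot be told apart. The defining enterocyte markers were present in both libraries, with 977 and 1833 reads of Vil1 and 937 and 1094 of Alpi, both chosen here as defining genes and not by size. Values in parentheses after a ratio are its 95% exact interval, which covers counting error only. In whole villi, fewer cells of a type and less RNA per cell cannot be told apart.

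Of the 10 genes, 9 had a mean of at least 20 normalised reads and are called measured. In dKO-labelled villi 1 of the 9, Apob, passed the 2-fold limit downward and 1, Mogat2, passed it upward, and the other 7 lay within it. Over all 6001 measured genes, 26.2% passed it upward and 4.18% downward, and 1 gene in a direction is too few to set the members apart from that background. Measured from the median of all genes instead, 0 of 9 passed upward and 2 downward (Apob and Dgat2), against 11.8% and 10.4% of all measured genes. The counting interval excluded 1 for 8 of the 9, against 64.6% of all measured genes. Such an interval narrows as reads increase, and many measured genes had fewer reads than the members, so these shares do not compare like genes. The median log2 ratio of the 9 genes was -0.10, against 0.51 over all measured genes, and 8 of the 9 lay below that overall median. All 9 had a mean above 200, a limit chosen after the values were seen. Genes at that level had lower medians, from 0.47 for transcripts under 1 kb to -0.51 for those of at least 8 kb. Together the 10 genes took 1.88% of all reads in control villi (1.85% to 1.91%) and 0.980% in dKO-labelled villi (0.962% to 0.999%). Most of that difference lay in Apob: without it the shares were 1.01% and 0.779%, and the scaled ratio of the summed reads was 0.946 (0.917 to 0.976) against 0.641 with it. Of the 7849 and 8241 reads left, 4847 and 5007 were of Apoa1, Apoa4 and Apoc3. These lay near the highest read density of any gene, described below, and the part of this in the shares was not tested.

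**Figure D1:**
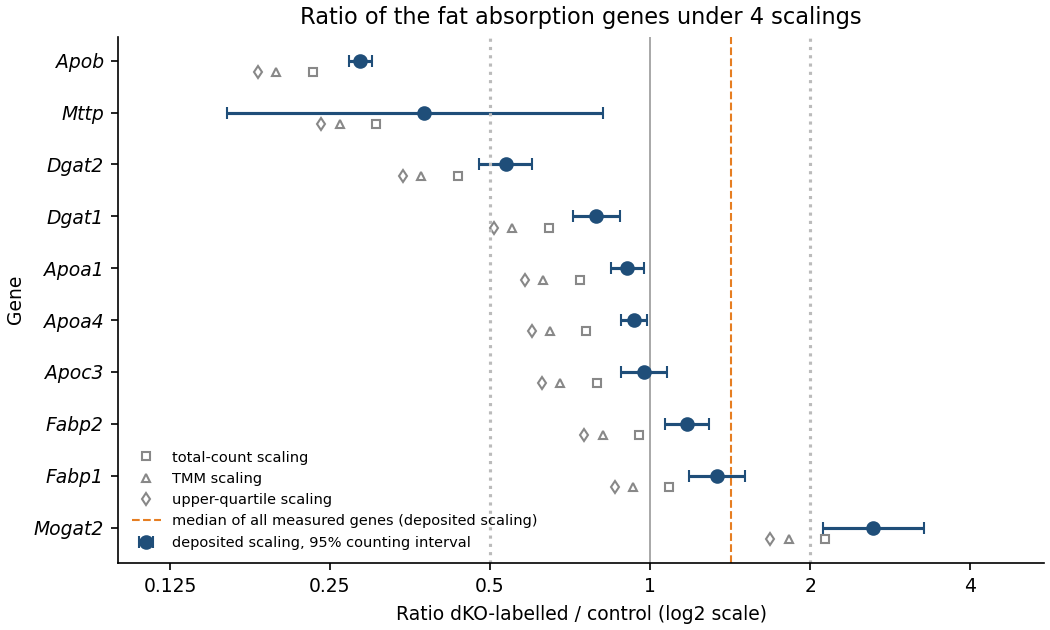
Ratio of the dKO-labelled to the control library for each of the 10 genes (x axis, log2 scale), with the 95% counting interval under the deposited scaling and open symbols for 3 other scalings; dotted lines mark 2-fold and the dashed line the median of all measured genes. Apob stands at the low end at 0.285 and Mogat2 at the high end at 2.63, with the 3 surface apolipoproteins between 0.906 and 0.976.

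The scaffold of the particle was examined first. Apob (NM_009693) encodes the very large protein around which each chylomicron is built. Its normalised read count was 7102 in control villi and 2026 in dKO-labelled villi, from 6742 and 2133 reads. That is 3.51-fold lower (3.34 to 3.68). Apob was lower under each scaling that was tried, with log2 ratios from -2.45 to -1.81. Its share of the reads of the 10 genes was 46.2% in control villi and 20.6% in dKO-labelled villi. A comparison inside each library needs no scaling: there were 2.67 Apob reads for each Apoa4 read in control villi and 0.815 in dKO-labelled villi, a 3.27-fold lower ratio (3.04 to 3.52). Apoa4 lay near the highest read density of any gene, described below, and the part of this in the ratio was not tested. Dgat1 lay lower, at 0.431 and 0.379 reads per base. For each Dgat1 read there were 8.29 and 2.98 Apob reads, a 2.78-fold lower ratio (2.48 to 3.11).

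Only 59 genes had a mean of at least 1000 normalised reads, and by log2 ratio Apob was the second lowest of them. The 5 whose log2 ratio was nearest to that of Apob were the nuclear RNA Neat1 (-1.41), Lmo7 (-1.07), the goblet cell gene Fcgbp (-1.01), the nuclear RNA Malat1 (-2.67) and the villus-tip enzyme gene Nt5e (-0.88). This likeness rests on 1 ratio between 2 libraries. The transcript of Apob, 13.9 kb, was longer than that of each of these 5, which ran from 3.00 kb to 7.93 kb.

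Transcript length moved with the ratio across all measured genes. The median log2 ratio was 0.72 over 497 measured genes with transcripts under 1 kb, 0.61 over 1381 from 1 to 2 kb, 0.53 over 2331 from 2 to 4 kb, 0.35 over 1513 from 4 to 8 kb and 0.04 over 273 of at least 8 kb. In genes whose mean reached 200, a limit chosen after the values were seen, the 37 with transcripts of at least 8 kb had a median of -0.51. Of these 37 genes, 10 (27.0%) passed 2-fold downward and 1 upward. Apob was the most abundant of them, and Myo10 (-2.59), Fgd6 (-2.01) and Helz2 (-1.91), named after their values were seen, had lower ratios than its -1.81. The part of transcript length or RNA quality in the Apob value was not tested.

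**Figure D2:**
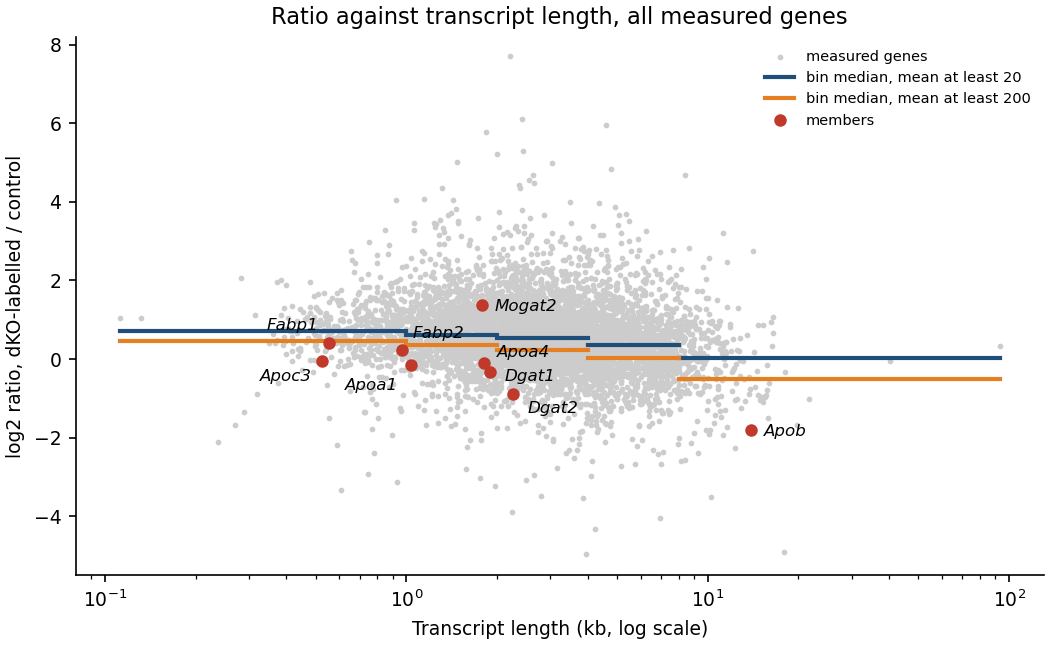
log2 ratio of the dKO-labelled to the control library (y axis) against transcript length in kb (x axis, log scale) for all measured genes (grey) and the 9 measured members (red); horizontal bars are medians in 5 length bins for genes with a mean of at least 20 (blue) and at least 200 (orange). The medians step down with length to 0.04 and -0.51 at 8 kb and above, and Apob lies below both at -1.81.

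The Apob promoter is shown because Apob had the lowest ratio, beside that of Fabp1, a gene of the same cells that lay within 2-fold. Both are RefSeq sequences of build GRCm38.p6, running from 250 bases before to 50 bases after the annotated start site on the plus strand, Apob at chr12:7977427-7977726 and Fabp1 at chr6:71199629-71199928. Capitals mark the letters TATAAA, the core of a TATA box, and the letters CAAAGGTC or CAAAGTCC, cores of sites bound by the nuclear receptor HNF4, an activator of many enterocyte lipid genes, each searched on both strands.
Apob: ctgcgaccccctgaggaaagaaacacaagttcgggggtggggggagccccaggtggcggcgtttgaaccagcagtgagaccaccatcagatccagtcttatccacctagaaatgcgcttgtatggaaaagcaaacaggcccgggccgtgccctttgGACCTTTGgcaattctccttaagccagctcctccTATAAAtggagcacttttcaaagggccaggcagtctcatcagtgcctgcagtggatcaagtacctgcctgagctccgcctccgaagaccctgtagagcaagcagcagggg
Fabp1: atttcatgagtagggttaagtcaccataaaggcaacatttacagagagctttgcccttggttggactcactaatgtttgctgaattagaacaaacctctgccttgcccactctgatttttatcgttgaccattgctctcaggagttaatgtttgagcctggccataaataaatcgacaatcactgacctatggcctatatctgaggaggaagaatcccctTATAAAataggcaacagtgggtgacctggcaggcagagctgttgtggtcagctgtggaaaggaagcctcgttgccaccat
The Apob window held 1 match to CAAAGGTC, on the minus strand, with its leftmost base 94 bases before the start site, and the Fabp1 window held none. CAAAGGTC occurred in 1.17% and CAAAGTCC in 1.42% of 32817 promoter windows of this length. Both windows held TATAAA, as did 13.6% of all windows, starting 60 bases before the start site in Apob and 30 in Fabp1. A match describes letters and is not a binding site. Of the 6 members with a sequence, Mttp had the most CpG dinucleotides in its window, 27, followed by Apob with 9, Apoa1 with 4, Fabp1 and Fabp2 with 3 each and Apoa4 with 1. The median over all windows was 7, with quartiles of 3 and 20.

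Mttp (NM_008642) encodes the microsomal triglyceride transfer protein, which loads lipid onto apolipoprotein B as it is made. It had 24 reads in control villi and 10 in dKO-labelled villi, normalised values of 26.3 and 10.4. The ratio was 2.66-fold lower with a wide counting interval (1.23 to 6.24), and the mean of 18.4 left it outside the measured genes. Its second transcript in the table was listed with 0 reads in both libraries. Genes with several rows in the table were measured less often, 14.5% of 1171 against 29.8% of 19551 with a single row, though 37.1% of them had 0 reads in control villi against 41.0%. The part of row number in the few Mttp reads was not tested. As for Hspa5 and Canx below, a low entry does not by itself show that little message was present. The other 9 genes each have a single row.

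The surface apolipoproteins had nearly equal reads in both libraries, of which the dKO-labelled one was the deeper. Together they took 0.625% of all reads in control villi and 0.473% in dKO-labelled villi. Apoa1 (NM_009692), the main protein of high density lipoprotein that the gut also puts on chylomicrons, had 1552 and 1560 reads, a scaled ratio of 0.906 (0.844 to 0.973). Apoa4 (NM_007468), an apolipoprotein of the intestine that is made on fat intake, had 2529 and 2618 (0.933, 0.883 to 0.986). Apoc3 (NM_023114), an inhibitor of lipoprotein lipase, had 766 and 829 (0.976, 0.883 to 1.08). Their log2 ratios of -0.14, -0.10 and -0.04 were 0.65, 0.61 and 0.54 below the median of all measured genes. Under 4 other scalings the log2 ratios were lower, -0.78 to -0.44 for Apoa1, -0.74 to -0.40 for Apoa4 and -0.68 to -0.33 for Apoc3.

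These 3 genes were among the 5 with the most reads per base of transcript in the whole table. Apoc3 had 1.46 reads per base in control villi and 1.58 in dKO-labelled villi, Apoa1 1.50 and 1.51, and Apoa4 1.39 and 1.44. No gene exceeded 1.60 reads per base in control villi or 1.58 in dKO-labelled villi, and the other 2 of the 5 were Prap1 (989 and 975 reads) and Zg16 (961 and 957). Ratios were closer together at such densities: the SD of the log2 ratio was 0.96 over 4606 measured genes under 0.1 reads per base, 0.68 over 201 from 0.4 to 0.8 and 0.45 over 12 of at least 1.2. Of those 12 genes, 1 lay beyond 2-fold, against 32.4% of the genes under 0.1. Genes of low density tend to have fewer reads and so a larger counting error, whose part in these SDs and shares was not tested. In unscaled reads, with the deeper library in the numerator, the median ratio was 1.10 over the 12, and it showed no such difference in the lower groups: 1.63 over the 57 genes from 0.8 to 1.2 reads per base, 1.51 from 0.4 to 0.8, 1.55 from 0.1 to 0.4 and 1.63 under 0.1. These density groups were formed after the values were seen. The part of read density in the near-equal reads of Apoa1, Apoa4 and Apoc3 was not tested.

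**Figure D3:**
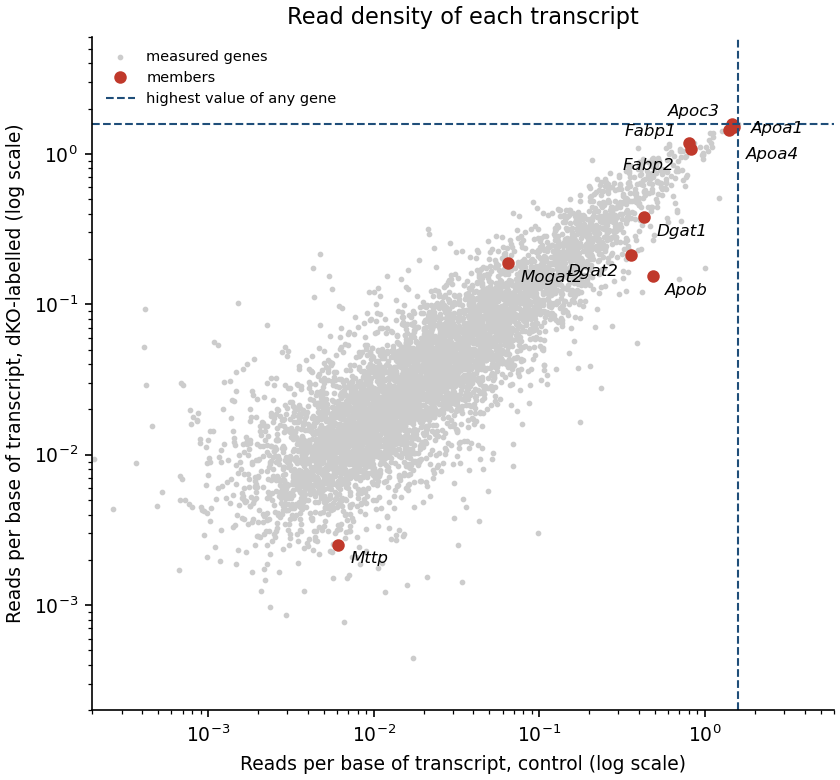
Reads per base of transcript in control villi (x axis) and the dKO-labelled library (y axis), both log scales, for measured genes (grey) and the 10 members (red); dashed lines mark the highest value of any gene, 1.60 and 1.58. Apoa1, Apoa4 and Apoc3 sit in the upper corner where the dashed lines cross, Apob lies well under the cloud and Mogat2 above its middle.

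Apoa1, Apoc3 and Apoa4 stand next to each other on mouse chromosome 9, in the RefSeq gene order of assembly GRCm38.p6, and Apoa5 follows them. Apoa5, which encodes an activator of lipoprotein lipase made mainly in the liver, was listed at 0 reads in both libraries. On the other side of Apoa1, and named after their values were seen, Sik3 had 38 and 57 reads (log2 ratio 0.41), Pafah1b2 beyond it 124 and 143 (0.05) and Sidt2 after that 1410 and 521 (-1.58).

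The fatty acid carriers were slightly higher in dKO-labelled villi under the deposited scaling. Fabp1 (NM_017399), the liver-type fatty acid binding protein that also serves the proximal gut, had 443 and 657 reads, a ratio of 1.34 (1.18 to 1.51). Fabp2 (NM_007980), the intestinal form, had 795 and 1035 reads, a ratio of 1.17 (1.07 to 1.29). Both log2 ratios, 0.42 and 0.23, lay below the median of all measured genes, and their direction depends on the scaling. Fabp2 was negative under all 4 other scalings (-0.41 to -0.07) and with the median set to 0 (-0.28), and Fabp1 under upper-quartile (-0.22) and TMM scaling (-0.11) and with the median set to 0 (-0.090). The number of Fabp1 reads for each Fabp2 read was 0.557 in control villi and 0.635 in dKO-labelled villi, a change of 1.14 (0.976 to 1.33) that lies within counting error. Fabp1 reached 1.19 and Fabp2 1.07 reads per base in dKO-labelled villi, both in the density group from 0.8 to 1.2.

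The enzymes that rebuild triglyceride differed from one another. Mogat2 (NM_177448) encodes the monoacylglycerol acyltransferase that opens the main route of fat re-synthesis in the gut. It had 115 reads in control villi and 335 in dKO-labelled villi, normalised counts of 122 and 319, 2.63-fold higher (2.12 to 3.27). Dgat1 (NM_010046), which adds the last acyl chain and is the main such enzyme of enterocytes, had 813 and 715 reads, a ratio of 0.793 (0.716 to 0.878). Dgat2 (NM_026384), an enzyme of another protein family that catalyses the same last step, had 812 and 482 reads, 1.87-fold lower (1.67 to 2.10).

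Ratios within each library, which no scaling can move, set these enzymes apart. For each Dgat2 read there were 0.142 Mogat2 reads in control villi and 0.695 in dKO-labelled villi, 4.91-fold more (3.84 to 6.29). Against Dgat1 the Mogat2 reads were 3.31-fold more (2.61 to 4.23), and the Dgat2 reads were 1.48-fold fewer (1.27 to 1.73). Dgat1 and Dgat2 thus had nearly equal reads in control villi and unequal reads in dKO-labelled villi. Mogat2 and Dgat2 are direct neighbours on mouse chromosome 7 in the RefSeq gene order of assembly GRCm38.p6, and the 2 neighbours lay on opposite sides of 1. Mogat2 belongs to the same protein family as Dgat2. The next genes outward were low, with 6 and 20 reads of Uvrag on the Dgat2 side and 0 reads of Map6 in both libraries on the Mogat2 side.

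Per length of transcript the order of the genes differed between the libraries. In the control, Apoa1 led with 1579 normalised reads per kb, followed by Apoc3 with 1534 and Apoa4 with 1468, and the counting intervals of neighbours in that order overlapped. Fabp2 and Fabp1 followed at 868 and 844, also with overlapping intervals. Apob at 510, Dgat1 at 454, Dgat2 at 378 and Mogat2 at 68.0 came next, each separated from its neighbour. In the dKO-labelled library Apob at 145 normalised reads per kb had moved below Dgat1 at 360, Dgat2 at 202 and Mogat2 at 179, and the intervals of Dgat2 and Mogat2 overlapped there. Among all measured genes Apob ranked 103rd per kb in control villi and 851st in dKO-labelled villi, while Mogat2 ranked 1331st and 682nd. Apoa1, Apoc3 and Apoa4 lay near the highest read density of any gene, as described above. The part of this in their levels and order was not tested.

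**Figure D4:**
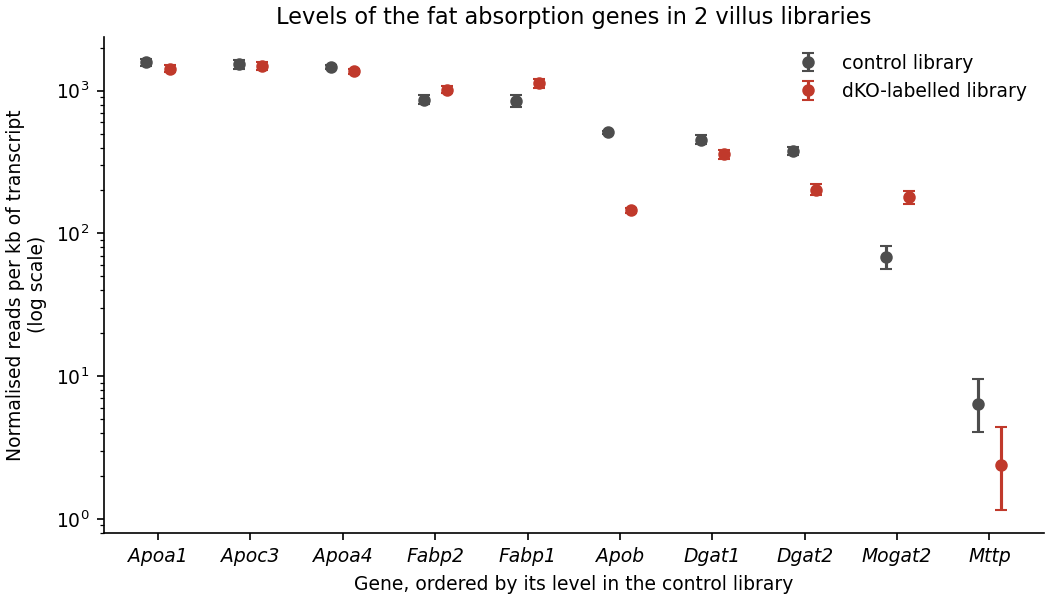
Normalised reads per kb of transcript (y axis, log scale) of the 10 genes, ordered by their level in the control library (x axis), in control villi (grey) and the dKO-labelled library (red); bars are 95% counting intervals. Apob drops from 510 to 145 and Mogat2 climbs from 68.0 to 179, while the 3 surface apolipoproteins lie at 1369 or more in both.

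Other genes of fat absorption were taken from 7 lists drawn from general knowledge of the pathway. A gene is counted as higher or lower there only past 2-fold. Over the lists, 60 of 96 genes in the table were measured, and 13 (21.7%) passed 2-fold upward and 2 (3.33%) downward, against 26.2% and 4.18% of all measured genes. Their median log2 ratio was 0.32. The medians of the lipid droplet, apolipoprotein B maturation and vesicle transport lists, positive below, were negative under each of 4 other scalings, and that of the transcription factors was negative under upper-quartile and TMM scaling.

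Genes of fatty acid uptake and activation had 3 of 8 measured genes past 2-fold upward and 0 downward, with a median log2 ratio of 0.75. Got2, a mitochondrial aminotransferase also described at the plasma membrane, had 9 and 99 reads (9.92-fold, 5.02 to 22.3). Slc27a2, an acyl-CoA synthetase of the fatty acid transport protein family, had 10 and 44 (3.97-fold), Acsl1, which activates long-chain fatty acids, 34 and 86 (2.28-fold), and Slc27a1, of the same family as Slc27a2, 14 and 32 with a log2 ratio just inside the 2-fold limit. Cd36, a fatty acid receptor, was listed at 0 reads in both libraries. The glycerol phosphate pathway, the second route to triglyceride, had 3 of 6 higher and 0 lower (median 0.82): Agpat6 4.79-fold, Agpat3 2.77-fold and Gpd1, which makes glycerol phosphate, 2.14-fold higher. Agpat9, named Gpat3 in later annotations, had 411 and 305 reads, a ratio of 0.669 (0.575 to 0.778).

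Lipid droplet and lipolysis genes had 1 of 6 higher and 0 lower (median 0.18). That was Faah, a hydrolase of fatty acid amides, with 12 and 106 reads (7.96-fold, 4.37 to 15.9). The droplet coat gene Plin2 had 314 and 393 reads, Cideb, which helps to enlarge lipoprotein particles, 38 and 61, and the lipase cofactor gene Abhd5 140 and 177. Each of these 3 had a counting interval that included 1.

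Genes that mature apolipoprotein B or lipidate the particle had 0 of 6 measured members beyond 2-fold in either direction (median 0.23), in the same libraries in which Apob was lower. P4hb, protein disulfide isomerase and the partner subunit of the transfer protein, had 1090 and 1368 reads (1.13, 1.04 to 1.23). A1cf, a cofactor of the enzyme that edits the Apob message, had 46 and 92 (1.80, 1.25 to 2.63), Tm6sf2, needed to lipidate the particle, 110 and 224 (1.84, 1.45 to 2.33), and Pla2g12b 116 and 157 (1.22, 0.954 to 1.56). The editing enzyme gene Apobec1 was listed with 1 and 0 reads. The chaperone genes Hspa5 and Canx, used by every cell, were listed as low, with 0 and 1 reads each, so an entry near 0 does not by itself show that a gene was not expressed.

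Genes of vesicle transport out of the endoplasmic reticulum had 2 of 17 higher and 1 lower (median 0.26). Mia2, which belongs to a receptor family for large cargo, had 73 and 33 reads, 2.45-fold lower (1.61 to 3.82), while Tfg (12 and 39 reads) and Bet1 (44 and 112) were 2.93- and 2.29-fold higher. Surf4, a cargo receptor for lipoproteins, had 1267 and 873 reads, 1.61-fold lower (1.48 to 1.76). Sar1b, the small GTPase whose loss causes chylomicron retention disease and which was added to the named genes after its values were seen, had 258 and 397 reads, a log2 ratio of 0.47.

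Among other soluble apolipoproteins 0 of 3 measured genes were higher and 1 was lower (median -0.11). Clu (clusterin) had 166 and 78 reads, 2.36-fold lower (1.79 to 3.13). Apoc2, which activates lipoprotein lipase, had 704 and 725 (0.928, 0.836 to 1.03). At 0.968 and 0.997 reads per base it was in the density group from 0.8 to 1.2, below that of Apoc3. Apoe had 126 and 254 (1.82, 1.46 to 2.27).

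Transcription factors known to act on these genes had 4 of 14 higher and 0 lower (median 0.45). Maf had 69 and 441 reads (5.76-fold, 4.46 to 7.54), Hnf4g, the second HNF4 gene of the gut, 58 and 250 (3.89-fold, 2.91 to 5.26), and Klf5, a regulator of epithelial proliferation, 58 and 171 (2.66-fold). Added after their values were seen, Hnf4a had 1118 and 1306 reads, a log2 ratio of 0.07, and Creb3l3, an activator of Apoa4 at the membrane of the endoplasmic reticulum, 665 and 644, a log2 ratio of -0.20.

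**Figure D5:**
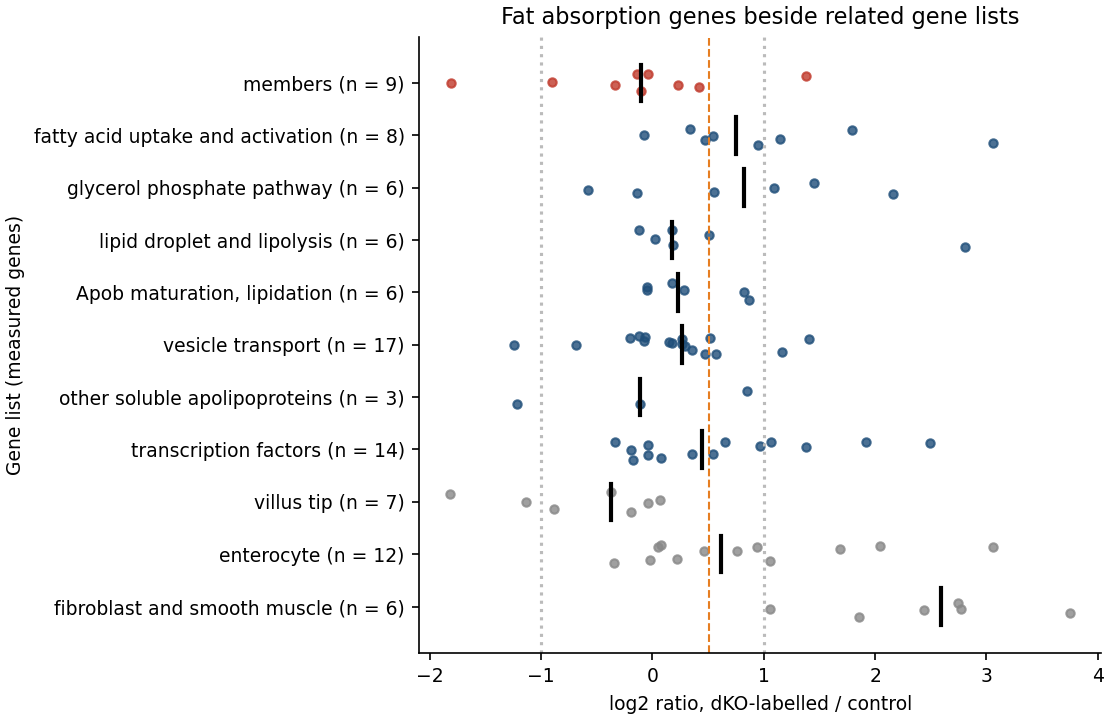
log2 ratio of each measured gene (points) by list (y axis), with list medians as black bars, the median of all measured genes as a dashed line and 2-fold as dotted lines; vertical scatter within a list has no meaning. The members' median of -0.10 lies left of the overall 0.51, beside the other soluble apolipoproteins at -0.11 and the villus-tip genes at -0.37, while fibroblast and smooth muscle markers lie to the right at 2.59.

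Markers of place and of other cells were counted in the same way, beside 26.2% of all measured genes higher and 4.18% lower. Their part in the values above was not tested. Villus-tip genes, 2 of which (Klf4 and Creb3l3) are also in the transcription factor list, had 2 of 7 lower and 0 higher (median -0.37), with Egfr 3.59-fold and Slc28a2 2.20-fold lower, and a ratio of 0.542 for Nt5e and of 0.769 for Ada. Villus-base genes had 1 of 5 higher and 2 lower (median 0.08), with Nlrp6 6.84-fold higher and the antimicrobial gene Reg3b 5.29-fold lower. Distal genes had 4 of 7 higher and 0 lower (median 1.32), with Fabp6, the ileal bile acid carrier, 2.51-fold higher, and proximal genes 1 of 6 in each direction (median 0.43). The 12 enterocyte markers had 4 higher and 0 lower (median 0.61), and their summed reads were 7523 and 11277. The 4 were the disaccharidase genes Sis (37 and 357 reads, 8.70-fold) and Lct (184 and 847, 4.15-fold), the glucose transporter gene Slc2a2 (16 and 62, 3.49-fold) and the peptidase gene Enpep (171 and 398, 2.10-fold). Fibroblast and smooth muscle markers had 6 of 6 measured genes higher, with 54 and 348 reads over 9 genes, Dcn listed at 0 in both. Of the hepatocyte markers, a second source of apolipoprotein messages, 1 of 9 was measured and it lay within 2-fold, Serpina1c with 16 and 26 reads. Alb was listed with 5 and 3 reads, Ahsg, Fga and Serpina1a with 0 in both, and the 9 genes together with 39 and 56, entries to which the limit given for Hspa5 and Canx also applies. Adipocyte markers had 4 and 24 reads over 5 genes, with Plin1 and Lep listed at 0 in both. General epithelial markers had 1 of 5 higher and 0 lower, with 5191 and 6847 reads.

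Secretory and other lineages gave mixed counts. Goblet markers had 0 of 7 higher and 1 lower (median -0.03), Paneth markers 1 of 6 higher and 0 lower (0.56), enteroendocrine markers 1 of 6 higher and 2 lower (-0.52) and tuft markers 0 of 3 higher and 1 lower (-0.51), with the tuft cell channel gene Trpm5 6.35-fold lower. Of the markers of stem and dividing cells 1 of 5 was measured and it was higher, Mki67 with 12 and 32 reads. Neither of the 2 measured immune and the 2 measured pancreatic acinar markers passed 2-fold, with summed reads of 138 and 226 and of 148 and 230. None of the 6 endothelial and lymphatic markers was measured (6 and 58 reads in sum), nor either of the 2 erythroid markers, which had 0 reads in both libraries. All these counts depend on the scaling. Measured from the median of all measured genes, 11.8% passed 2-fold upward and 10.4% downward. Enterocyte markers then had 3 higher and 0 lower, distal genes 2 and 0, and fibroblast and smooth muscle markers 5 and 0. Villus-tip genes and enteroendocrine markers each had 0 higher and 3 lower, goblet and tuft markers 0 and 2. Paneth, general epithelial and dividing cell markers had 0 and 0, and villus-base and proximal counts did not change.

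In the authors' deposited table the unadjusted DESeq p-value was 0.171 for Apob, 0.301 for Mogat2, 0.426 for the Mttp row used here, 0.490 for Dgat2 and at least 0.749 for the other 6 genes. None of the 10 was under 0.05, against 0.472% of 22040 rows higher and 0.0862% lower. With 1 library per genotype there were no replicates from which those p-values could measure spread.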

How the data were processed

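The study deposited 1 RNA sequencing table with both villus libraries as columns. A TruSeq RNA v2 kit was used per the labels. TopHat, DESeq and build mm9 are named, without versions, per the submitters' processing notes. How reads were counted, and whether strand was used or duplicates removed, is not given in the sources used here.

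Its 22040 RefSeq rows hold, per the file headers, base means from DESeq as the deposited signal, a normalised read count. Dividing each column by its smallest value gave whole numbers in 100% of rows (tolerance 0.001), the lowest being 1. Subtracting 1 read from each was taken to give the reads, which is inferred from the values and stated by no label. The authors also deposited a fold (ratio) and its log2, which are quotients of those signal values, and an unadjusted DESeq p-value.

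Each symbol was represented by its row with the highest mean. Normalised counts were compared as log2((dKO + 1)/(control + 1)), a scale that understates changes of low genes. Genes with a mean of at least 20 were called by size at 2-fold, with no test. Printed ratios compare recovered reads after division by 1.11, the ratio of size factors, with 95% Clopper-Pearson intervals. Ratios of 2 genes within libraries have exact conditional intervals. Transcript lengths are from GENCODE M21 and names, promoters and gene order from RefSeq GRCm38.p6. Both differ from mm9.

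The members, lists and tests were chosen with earlier results of these data known. Named genes were all members, for each list up to 4 measured genes farthest from a log2 ratio of 0, the 5 genes nearest to Apob at a mean of at least 1000, and the targeted genes. A gene that this rule names is not reported here. Read-density groups, gene order and promoter motifs were chosen after values were seen. Exon-level deletion was not analysed here. Alternatives were 4 other scalings, a median set to 0, a pseudocount of 5, removal of the added read, summed rows, thinning, other filters, an interval rule, a binomial test on reads and the authors' p-values. Software was Python 3.11.15 (scipy 1.17.1, pandas 2.3.3, numpy 2.4.6, matplotlib 3.10.9) and, for TMM, R 4.3.3 with edgeR 4.0.16. The size rule and the counting interval were checked on simulated counts that held counting error only. That check does not cover spread between mice.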

Additional observations from a re-analysis of the deposited data

How the results depend on the processing

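No replicate could be left out. No paired analysis was possible because each genotype had 1 library. Apob was at least 2-fold lower under each scaling, pseudocount, row choice, filter, thinning and interval rule tried. The binomial test, which has no 2-fold limit, called Apob lower, and the authors' unadjusted p-values did not call it. Mogat2 remained at least 2-fold higher except under upper-quartile and TMM scaling and the median set to 0, which left 0 members higher. The binomial test called Mogat2 higher, and the authors' p-values called 0 members higher. The scalings, pseudocounts and row choices gave log2 ratios of Mogat2 from 0.74 to 1.39. Members at least 2-fold lower numbered 2 with total counts, epithelial genes and the median set to 0 (Apob and Dgat2), 3 with the upper quartile and TMM (Mttp in addition) and 2 with no filter (Apob and Mttp). The binomial test on reads, which compares the libraries and not the conditions, called 3 higher and 5 lower, and the authors' unadjusted p-values 0 and 0. Mttp had the fewest reads of the 10 genes, 24 and 10, and the reason was not tested.

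Over all genes, total counts gave 972 higher against 436 lower, the upper quartile gave 528 higher against 818 lower, TMM gave 657 higher against 665 lower, epithelial genes gave 895 higher against 473 lower, the median set to 0 gave 711 higher against 626 lower, no filter gave 3704 higher against 892 lower, a minimum mean of 100 gave 358 higher against 104 lower, the interval rule gave 627 higher against 104 lower, the binomial test gave 3013 higher against 698 lower and the authors' p-values 104 against 19. Against the deposited size factors, log2 ratios shift by -0.30 under total-count, -0.64 under upper-quartile, -0.53 under TMM and -0.34 under epithelial scaling.

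The median log2 ratio of the members was -0.40 under total-count scaling, -0.76 under upper-quartile scaling, -0.65 under TMM, -0.44 with epithelial genes and -0.61 with the median set to 0. In the order in which the 7 pathway lists were described, the medians were 0.46, 0.53, -0.12, -0.067, -0.035, -0.40 and 0.15 under total-count scaling, 0.13, 0.19, -0.46, -0.41, -0.38, -0.75 and -0.19 under upper-quartile scaling, 0.24, 0.30, -0.35, -0.29, -0.26, -0.63 and -0.074 under TMM, 0.41, 0.48, -0.16, -0.11, -0.080, -0.45 and 0.11 with epithelial genes and 0.24, 0.31, -0.33, -0.28, -0.25, -0.61 and -0.058 with the median set to 0. At a mean of at least 100, the uptake list had 0.34, the glycerol phosphate list 0.48 and the transcription factors 0.21, and with no filter the glycerol phosphate list had 0.50 and the lipid droplet list 0.34.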
